A study of Drosophila melanogaster with 65 samples.

Results

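The gene traffic jam (tj) of Drosophila melanogaster was followed through RNA and chromatin data from OSS cells and ovaries. It was taken as the row tj of the long RNA tables, which is 1 of 16369 genes listed there and is present in all 24 long RNA libraries. To it were added the Traffic jam (TJ) binding peaks within 50 kb of the gene and the H3K4me3 and H3K9me3 summits within the gene or 5 kb of it. OSS cells are a cultured line of somatic cells from the fly ovary. They were given siRNA against Tj, Piwi or Ci (siTj, siPiwi, siCi) or against GFP as the control (siGFP), with 3 long RNA libraries in each group. Ovary libraries came in pairs of mutant and wild type, 1 pair for each of 6 fly lines: FITS, FlamBG and FlamKG, and FPSE1, FPSE2A and FPSE2B. The series text speaks of deletions in the promoter region of Flamenco, and the sources used here do not give the allele of each line. Chromatin came from OSS cells given siTj or siGFP, and from 2 samples labelled Plain for each mark, with 1 list of TJ peaks for the 3 TJ ChIP samples from OSS cells.

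TJ is a bZIP protein of the large Maf family that is made in the somatic cells of the gonad and in their culture lines, and germ cells lack it. It is required for the contact between somatic and germ cells, holds down adhesion molecules such as Fasciclin 3, and promotes transcription of piwi, the Argonaute gene of the nuclear piRNA pathway. The tj messenger RNA is itself known as a source of genic piRNAs, which come largely from its 3′ UTR in ovarian somatic cells. The gene is thus known both as a regulator of the pathway and as one of its substrates.

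Unique sense reads in genes numbered 9075806 to 54359738 in OSS libraries and 9676965 to 81892058 in ovary libraries. They made up 16.4% to 71.0% of the authors' library totals in OSS cells. The libraries siTj 2 and siPiwi 2 stood apart, with 9.27% and 12.4% of unique reads antisense to genes, against at most 5.08% in the other OSS libraries. The labelled material was checked against marker genes. The summed level of 11 germline genes was 86.2 to 175 CPM (counts scaled to library size, here over all 24 libraries) in OSS cells and 1068 to 18103 CPM in ovaries. That of 9 follicle and somatic ovary genes was 1050.1 to 2820.2 CPM in OSS cells and 270 to 732 CPM in ovaries. This excess came mainly from Wnt4, which averaged 971 CPM in OSS cells, 11.5 in mutant and 6.52 in wild-type ovaries (each tissue scaled on its own). zfh1 averaged 405, 64.8 and 49.7 CPM in the same order. Other members did not share the excess, with 163, 156 and 206 CPM for Fas3, 40.1, 41.4 and 70.9 for eya, and 101, 106 and 105 for ct. The germline contrast was uneven too. In the same order, dhd averaged 1.90, 3734 and 6194 CPM, but bgcn 60.8, 38.8 and 55.3 and rhi 22.8, 22.4 and 37.8. The germline markers nos, osk and otu held 1.35, 1.73 and 2.20 CPM in siTj 2 and 2.02, 1.65 and 3.01 CPM in siPiwi 2 (scaled over the OSS libraries), and lay under 1 CPM in every other OSS library. Whether replicates came from different cultures is not stated in the labels, and p-values therefore reflect only how much these libraries vary, possibly for technical reasons.

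tj lies on chromosome 2L, from 19464267 to 19467758 on the plus strand of Release 6, and spans 3492 bases. The reference annotation gives it 2 transcripts and 2 proteins. The long RNA tables counted it as 494 bases of 5′ UTR, 1536 of coding sequence and 1472 of 3′ UTR, which sum to 3502 bases. Its bounds were the same in all 24 libraries. At most 10 sense reads per library had several map positions. No other gene of the tables overlaps it.

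tj was an abundant transcript of OSS cells. By reads per length it ranked 76th, 157th and 211th of 13896 genes in the 3 siGFP libraries. On the scale shared by all 24 libraries it averaged 1553 ± 494 CPM in siGFP cells, 1389.6 ± 864 in siCi, 962 ± 693 in siPiwi, 461 ± 246 in siTj, 221 ± 143 in wild-type ovaries and 120.2 ± 108 in mutant ovaries (SD, n = 3 in each OSS group and 6 in each ovary group). The libraries of each group overlapped those of the next group in that order, at every step. In bulk samples fewer tj-expressing cells and less tj RNA per cell cannot be told apart.

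After siTj, tj was lower in all 3 libraries than in any siGFP library. On the scale of the OSS libraries it held 569, 218 and 593 CPM in siTj replicates 1, 2 and 3, against 2029.8, 1104 and 1211 CPM in siGFP. The means were 459.9 ± 210.1 CPM in siTj and 1448 ± 507 CPM in siGFP cells (SD, n = 3 each), so 31.8% of the siGFP level remained. By replicate number, 28.0%, 19.7% and 49.0% remained. edgeR, a count model fitted across all genes, put the log2 fold change at −1.65 (SE 0.61) with an adjusted p of 0.533, and 0.0467% of the 10711 genes tested passed the threshold of 0.05 there. Over all genes tested, replicates with the same number deviated together in the OSS libraries. At tj itself, replicates 1 were all above and replicates 2 all below their group means. Replicates 3 were split, at −0.20 in siGFP and −0.41 in siCi but 0.50 in siTj and 0.08 in siPiwi (log2 CPM). With the replicate number added as a block (the paired fit), tj fell by 1.72 on the log2 scale (SE 0.32, adjusted p = 0.0197, edgeR), where 3.54% of genes passed. Without siTj 1 the paired adjusted p (edgeR) was 0.0812 at a log2 fold change of −1.69, and with any other single siTj or siGFP library left out tj passed. An exact permutation test of the 3 against 3 log2 CPM gave p = 0.1, the smallest that this design allows (two-sided).

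**Figure D1:**
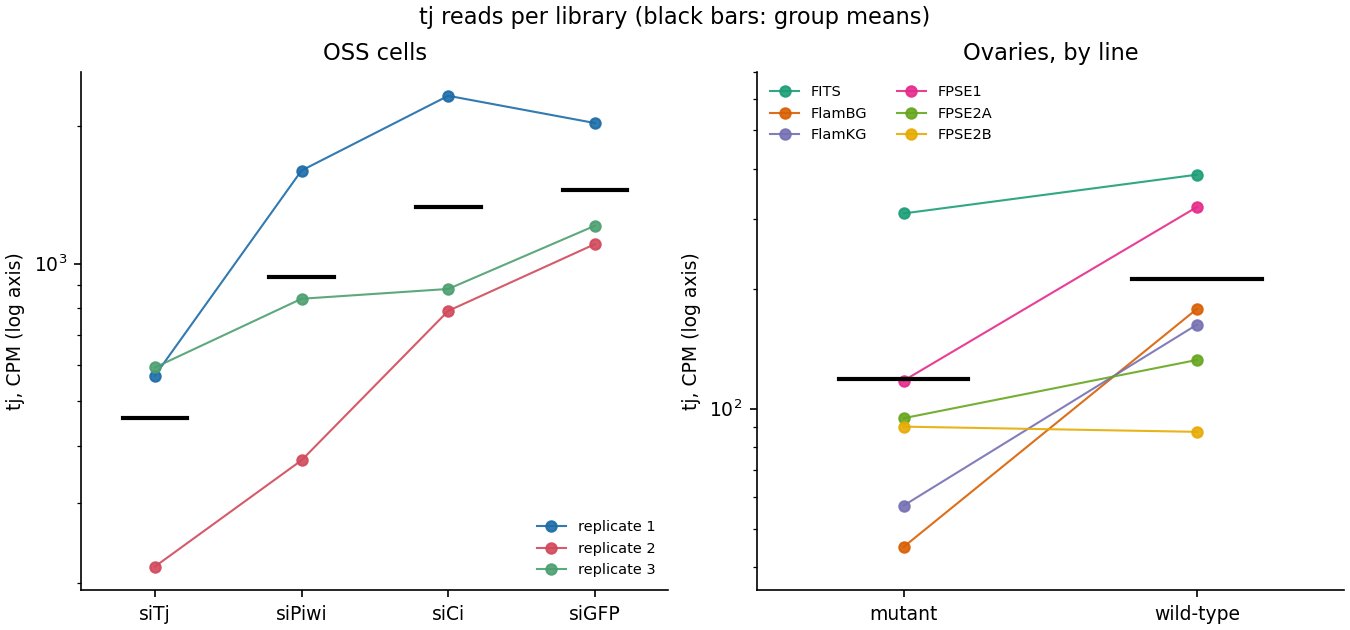
tj in every long RNA library, in CPM on log axes: OSS cells by knockdown (left panel, lines join libraries with the same replicate number) and ovaries by genotype (right panel, lines join the libraries of a fly line), with black bars at group means. The siTj libraries, at 218 to 593 CPM, lie below the siGFP libraries, at 1104 to 2029.8 CPM, and 5 of 6 ovary lines are lower in the mutant.

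The size of the fall depended on the library total used for scaling. The authors' own RPM for tj, scaled to their library totals, was 176, 40.5 and 175 in siTj replicates 1, 2 and 3, against 1186, 448 and 355 in siGFP, and siCi 1 was the highest library at 1233 RPM. With those totals in edgeR the log2 fold change of tj was −2.34 (adjusted p = 0.681), while the median of all genes moved to −0.60. With the block added it was −2.45 (adjusted p = 0.00273), with the median of all genes at −0.69. These totals were tried after the data had been seen.

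siRNA against other genes was compared with siGFP in the same way. tj held 1598.5, 372 and 838 CPM in siPiwi replicates 1, 2 and 3, which overlaps siGFP. The mean was 936 ± 619 CPM, or 64.7% of siGFP. Each siPiwi library was below the siGFP library of the same number, at 78.8%, 33.7% and 69.2% of it. In siCi cells tj held 2328, 789 and 881 CPM, a mean of 1333 ± 864 CPM or 92.0% of siGFP. Only replicate 1 of siCi exceeded its siGFP counterpart. Against siGFP the log2 fold changes (edgeR) were −0.63 (SE 0.60, adjusted p = 1.00) in siPiwi and −0.12 (SE 0.60, adjusted p = 1.00) in siCi. In these fits 0% of genes passed (edgeR), with 64 genes at an unadjusted p under 0.05 in siPiwi and 83 in siCi, and DESeq2 called 3 genes and 1 gene. In the paired fit the log2 fold changes were −0.82 (SE 0.31, adjusted p = 0.985) and −0.25 (SE 0.31, adjusted p = 0.921) in siPiwi and siCi cells.

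tj was also compared directly between knockdowns. In siTj against siCi cells the log2 fold change was −1.53 (SE 0.61, adjusted p = 0.823, edgeR), where 0.00934% of genes passed. In the paired fit tj fell by 1.47 on the log2 scale (SE 0.32, adjusted p = 0.0483, edgeR), where 1.46% of genes passed. This paired call was lost without siTj 1 (adjusted p = 0.272), siTj 2 (0.0888), siCi 1 (0.0877) or siCi 2 (0.104). In siTj against siPiwi cells the log2 fold change was −1.03 (SE 0.60, adjusted p = 1.00, edgeR), with 0% of genes called, 352 at an unadjusted p under 0.05 and 78 called by DESeq2. The paired fit gave −0.90 (SE 0.31, adjusted p = 0.288) where 0.682% of genes passed. Replicate 2 of siPiwi, at 372 CPM, was below both siTj 1 and siTj 3.

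The coding part and the 3′ UTR of tj were lower after siTj without overlap, and the 5′ UTR was not. In CPM per kb of length, the coding part held 202, 50.02 and 187 in siTj replicates 1, 2 and 3, against 743, 508 and 330.3 in siGFP. The 3′ UTR held 117, 90.3 and 184 in siTj against 441, 252 and 511 in siGFP. Every siTj library was below every siGFP library in either part. The 5′ UTR held 49.4, 44.5 and 118 in siTj against 52.2, 82.4 and 167 in siGFP, and the groups overlapped. These levels per length were scaled to the unique sense reads of each library, without the TMM factor used for the other CPM values. The 5′ UTR rests on 234 to 2991 reads per siTj or siGFP library, the coding part on 2488 to 42405 and the 3′ UTR on 3442 to 27312.

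Tested part by part, the coding sequence had −1.81 as its log2 fold change (SE 0.77, adjusted p = 0.546, edgeR) and fell by 1.98 in the paired fit (SE 0.44, adjusted p = 0.0215), where 5.45% of genes passed. The 3′ UTR, the part known to yield genic piRNAs, had −1.59 (SE 0.52, adjusted p = 0.532, edgeR) and fell by 1.56 in the paired fit (SE 0.29, adjusted p = 0.0492), where 0.438% of genes passed. Both UTRs together had −1.46 (SE 0.49, adjusted p = 0.499, edgeR) and fell by 1.45 in the paired fit (SE 0.28, adjusted p = 0.0396), where 1.41% of genes passed. The 5′ UTR had −0.43 (SE 0.52, adjusted p = 1.00, edgeR), and −0.42 in the paired fit (SE 0.33, adjusted p = 0.661). The paired calls of the UTRs were lost with any single siTj or siGFP library left out, with adjusted p (edgeR) of 0.0956 to 0.287 for the 3′ UTR and 0.0714 to 0.217 for both UTRs. That of the coding part was lost without siTj 1 (0.0778) or siTj 2 (0.0681).

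**Figure D2:**
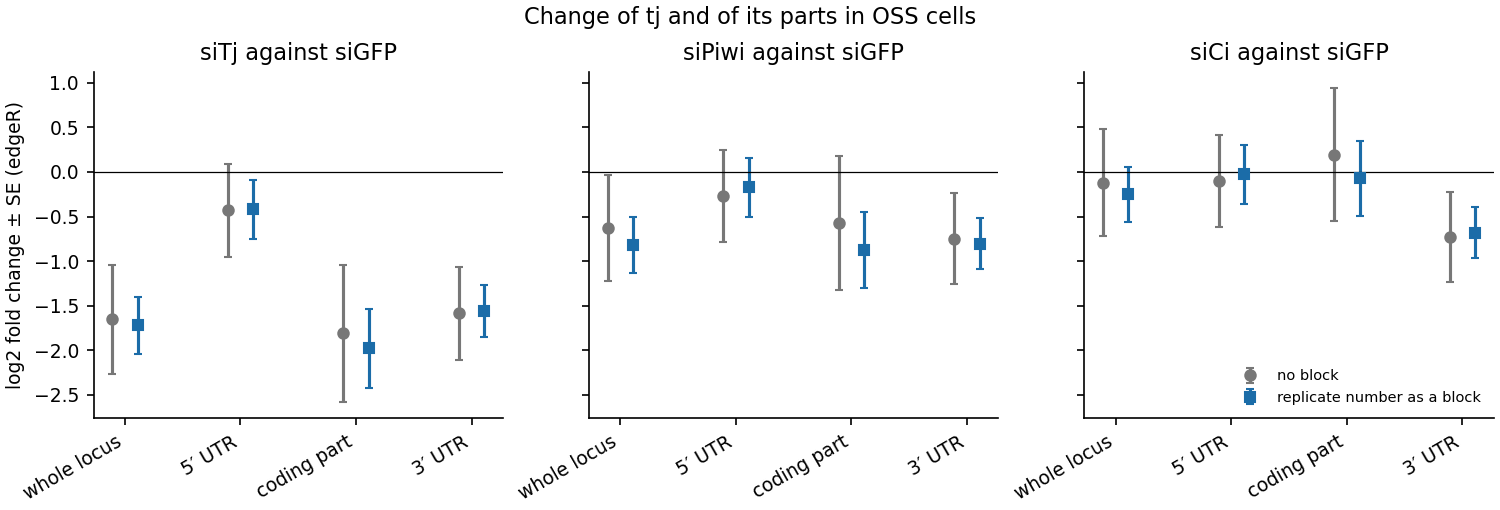
Log2 fold change of tj and of its 5′ UTR, coding part and 3′ UTR in siTj, siPiwi and siCi cells against siGFP cells (edgeR, bars are SE), without and with the replicate number as a block. The siTj values lie between −1.98 and −1.56 except for the 5′ UTR, at −0.43 and −0.42.

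The differences between parts were tested as ratios of their reads within a library. The log2 ratio of 3′ UTR to coding reads was −0.84, 0.79 and −0.08 in siTj replicates 1, 2 and 3, against −0.81, −1.07 and 0.57 in siGFP. It differed by 0.39 (SE 0.58, adjusted p = 1.00, limma), and without siTj 2 the difference was −0.02. In siPiwi and siCi cells the differences from siGFP were −0.03 (SE 0.58, adjusted p = 1.00, limma) and −0.69 (SE 0.58, adjusted p = 0.781, limma). The log2 ratio of 5′ UTR to coding reads was −3.66, −1.80 and −2.30 in siTj, against −5.46, −4.26 and −2.62 in siGFP, so it was higher in siTj at each replicate number while the groups overlapped. The difference was 1.53 (SE 1.00, adjusted p = 1.00, limma) and larger than that of 98.6% of 4238 genes. In the paired fit it had an unadjusted p of 0.0113 and an adjusted p of 0.782 (limma), so it did not pass. This ratio was examined after the data had been seen. It ranged widely within every OSS group, with −6.21 in siCi 1 and −3.09 in siCi 3.

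Reads antisense to tj were few. They made up 0.0801%, 3.20% and 0.106% of unique reads at tj in siTj replicates 1, 2 and 3, against 0.0730%, 0.162% and 0.0415% in siGFP. The means differed by 1.03 percentage points, with p = 0.5 in an exact two-sided permutation test whose smallest possible p is 0.1. Without siTj 2 the difference was 0.000477 percentage points. That library held 14.3% antisense reads at the median gene, and the share at tj was above that of 19.3% of genes with 100 or more reads. siPiwi 2, the other library with many antisense reads, had a share of 2.06% at tj.

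In ovaries the antisense share of tj spanned a wide range in both genotypes. It was 8.77% (95% Wilson interval 8.13% to 9.46%) in FPSE1 mutants and 0.257% in FPSE1 wild type, and 3.29% (2.74% to 3.94%) in FlamKG mutants and 0.297% in FlamKG wild type. In FlamBG it was 1.74% (0.996% to 3.01%) in mutants and 13.6% (11.98% to 15.3%) in wild type, and in FPSE2A 0.692% in mutants and 13.3% (12.6% to 14.0%) in wild type. FITS had 0.104% in mutants and 0.0829% in wild type, and FPSE2B 1.32% in mutants and 0.907% in wild type. The share was higher in mutants in 4 of 6 lines. Over whole libraries it lay between 3.87% and 7.32%. The intervals cover counting error only.

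In ovaries tj was lower in the mutant library in 5 of 6 lines. It held 44.95 CPM in FlamBG mutants and 178 in wild type, 57.1 in FlamKG mutants and 163 in wild type, and 118 in FPSE1 mutants and 321 in wild type. In these 3 lines 25.2%, 35.1% and 36.6% of the wild-type level remained. The other lines differed less. FPSE2A held 94.6 CPM in mutants and 133 in wild type, FITS 309 in mutants and 387 in wild type, and FPSE2B, the exception, 90.1 in mutants and 87.5 in wild type. The level in mutants ranged from 44.95 to 309 CPM with a median of 92.4, against 87.5 to 387 with a median of 170.4 in wild type, so the groups overlapped. The lowest library, the FlamBG mutant, rested on 679 sense reads of tj.

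edgeR with the line as a block gave a log2 fold change of −0.95 (SE 0.30) for mutants against wild type, with an unadjusted p of 0.0148 and an adjusted p of 0.439. No gene passed in this fit, 0% of 11257, with 1249 at an unadjusted p under 0.05, while DESeq2 called 335 genes and gave tj an adjusted p of 0.0901. A test that flips the sign of the 6 line differences gave an exact two-sided p of 0.0625, where the smallest possible is 0.03125. None of the parts passed, with log2 fold changes (edgeR) of −0.85 (SE 0.30, adjusted p = 0.556) for the 5′ UTR, −0.93 (SE 0.35, adjusted p = 0.477) for the coding part and −0.99 (SE 0.32, adjusted p = 0.447) for the 3′ UTR. The log2 ratio of 3′ UTR to coding reads differed by −0.07 (SE 0.25, adjusted p = 0.995, limma).

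Marker sums of other tissues differed between mutant and wild type by more in some lines than in others. The summed level of 8 muscle genes was 6778 CPM in FlamBG mutants and 492 in FlamBG wild type, and 5198 CPM in FlamKG mutants and 1846 in FlamKG wild type. That of 11 germline genes was 3096 CPM in FlamBG mutants and 18103 in wild type, and 1068 CPM in FlamKG mutants and 6338 in wild type. In FPSE1, the third line with low tj in mutants, both sums ran the other way, with 1283 CPM of muscle genes in mutants and 2455 in wild type, and 7190 CPM of germline genes in mutants and 5044 in wild type. FPSE2A also had a higher germline sum in mutants, 8663 CPM, than in wild type, 6665 CPM. The germline sum leaned on a few genes, as shown on the scale of the ovary libraries. dhd held 219 to 8166 CPM in mutants and 1630 to 15150 CPM in wild type, and nos 88.7 to 1416 and 281 to 3406. vas differed less, at 105 to 257 CPM in mutants and 138 to 276 CPM in wild type. Over all lines the muscle sum was lower in mutants in 4 of 6 and the germline sum in 4 of 6. The sum of the 9 follicle and somatic ovary genes, which like tj are expressed in somatic cells, had medians of 357 CPM in mutants and 473 CPM in wild type. It was lower in mutants in 5 of 6 lines, all but FlamKG, which had 576 CPM in mutants and 532 CPM in wild type. Its members did not share 1 direction. Log2 fold changes (edgeR) were −0.46 for Fas3, −0.95 for eya and −0.57 for bond. Those of zfh1, ct, Wnt4, slbo, hh and en were positive, at 0.03 to 1.29. The median of the list was 0.08, beside −0.07 over all genes, and no member passed. The part of tissue makeup in the tj difference was not tested.

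tj was higher in siGFP OSS cells than in whole wild-type ovaries, which also hold germ cells. On the shared scale the siGFP libraries lay between 1161 and 2109 CPM and the wild-type ovary libraries between 80.8 and 446 CPM, with no overlap and a ratio of means of 7.02. edgeR put the difference at 2.75 on the log2 scale (SE 0.43, adjusted p = 0.000443, edgeR). Tissue differences were common, as 43.6% of 11729 genes passed, with a median log2 fold change of −0.28. An exact permutation test of log2 CPM gave p = 0.0238, the smallest that 3 against 6 libraries allow (two-sided). The labels name no batch or date for these libraries, so any such difference cannot be told apart from tissue here.

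The order of the parts of tj was not the same in the 2 tissues. Per length, the 5′ UTR was the lowest of the 3 parts in all 12 OSS libraries, and the coding part was the lowest in all 12 ovary libraries. Mean CPM per kb of length in siGFP cells were 100.5 for the 5′ UTR, 527 for the coding part and 401 for the 3′ UTR, against 75.7, 36.0 and 78.8 in wild-type ovaries. In edgeR the coding part was higher in siGFP cells by 3.82 on the log2 scale (SE 0.52, adjusted p = 0.000154), where 44.9% of genes passed. The 3′ UTR was higher by 2.28 (SE 0.44, adjusted p = 0.000825), where 63.6% passed. The 5′ UTR differed by 0.34 (SE 0.63, adjusted p = 0.637, edgeR), where 69.7% passed.

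Such ratios differed between the tissues for most genes. The log2 ratio of 5′ UTR to coding reads of tj was lower in siGFP cells than in wild-type ovaries by 3.41 (log2 difference −3.41, SE 0.54, adjusted p = 0.000213, limma), while the median gene had −1.66 and 71.9% of genes passed. That of 3′ UTR to coding reads had a difference of −1.62 (SE 0.47, adjusted p = 0.0114, limma), close to the median of −1.38, and 65.2% of genes passed. Without siGFP 2 the 3′ UTR ratio had an adjusted p of 0.0595 (limma) at −1.30. For the 5′ UTR ratio 21.1% of genes had a lower value than tj, and for the 3′ UTR ratio 45.1%. These tissue ratios were examined after the data had been seen, and what sets the coverage of gene parts in each tissue was not tested.

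**Figure D3:**
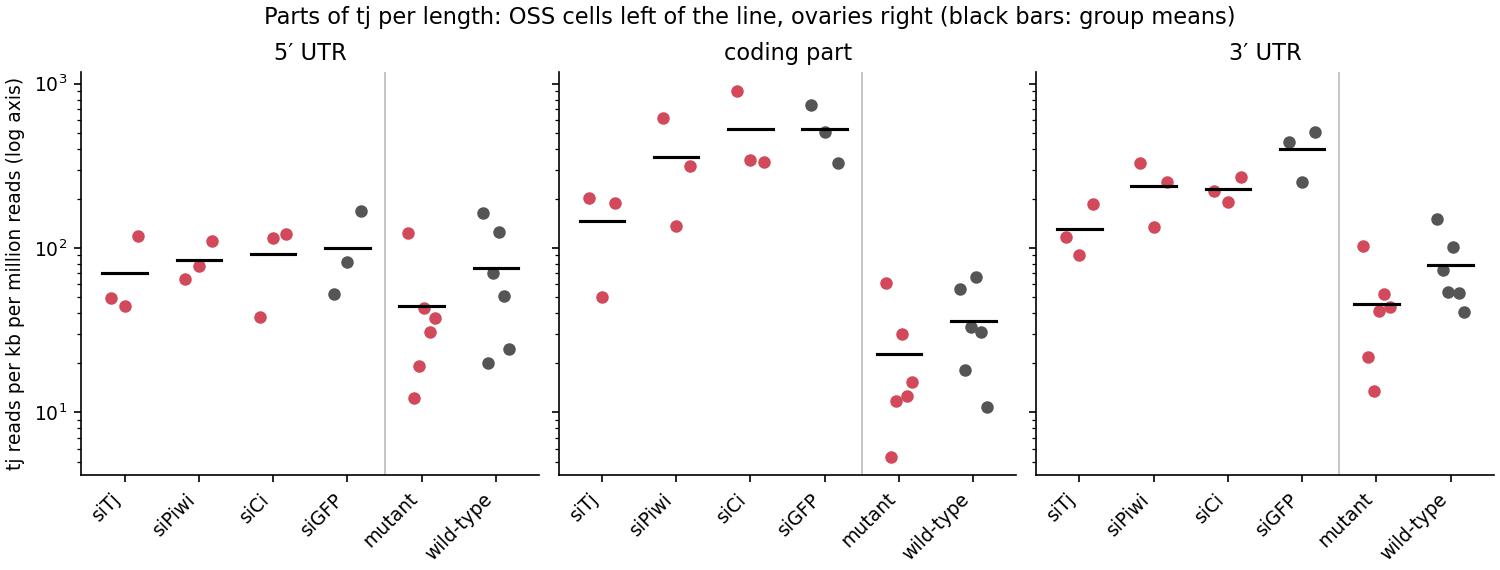
CPM per kb of length over the 5′ UTR, coding part and 3′ UTR of tj in each library (log axis), with OSS groups left of the grey line, ovaries right of it and black bars at group means. The coding part averaged 527 in siGFP cells and 36.0 in wild-type ovaries, whereas the 5′ UTR averaged 100.5 and 75.7.

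The chromatin at tj carried a strong H3K4me3 mark, the methylation found at active gene starts. Each deposited list of Cut&Run summits gives the authors' score per summit, taken as −log10 q, which is used here only within its list. In siTj cells the main summit lay 991 bp past the start of tj with a score of 27.7, rank 56 of 3134 summits. In siGFP cells it lay 467 bp past the start with a score of 151, rank 26 of 6255. The Plain samples had it at 713 bp with a score of 794, rank 2 of 6384, and at 604 bp with a score of 192, rank 9 of 5949. The gene was thus above 98.2% of the siTj list and above at least 99.6% of the other lists. A weak second summit, of score 2.05, lay 170 bp before the start in siTj cells, and weak summits past the gene's end had scores of 15.0 in siGFP cells and 3.97 in Plain 1.

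H3K9me3, the mark of silent chromatin, also had summits at tj, mostly downstream. The siTj list had 1 summit, 3271 bp past the end of the gene with a score of 3.44. The siGFP list had 7, of which 1 lay in the coding part, 1800 bp from the start with a score of 11.0, and the others 575 to 4940 bp past the end. The highest scores there were 20.9 at 3444 bp and 20.7 at 4206 bp past the end. Plain 1 had 5 summits and Plain 2 had 4, each with 1 in the coding part, at 1999 and 1818 bp from the start, and Plain 1 also had a weak one in the 3′ UTR (score 4.09). Their strongest lay 3464 and 3494 bp past the end, with scores of 37.6 and 6.88. Few genes had as many, as 3.92% of 16369 genes had at least 7 in the siGFP list.

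The siTj lists were shorter than the siGFP lists for both marks, with 3134 against 6255 summits of H3K4me3 and 8829 against 16939 of H3K9me3. Of the genes with an H3K9me3 summit within 5 kb in siGFP cells, 44.8% had one in siTj cells, and for H3K4me3 69.4% did. With 1 siTj and 1 siGFP library per mark there is no replicate check, and a change at tj cannot be told apart from the difference in list length. The 3 noncoding genes that lie 1367 to 3085 bp downstream of tj, among the H3K9me3 summits, were nearly silent. CR45722 averaged 0.0190 CPM in siTj and 0.0115 in siGFP cells, CR45723 averaged 0.0196 CPM and CR43839 averaged 0.00978 CPM in siTj cells, and neither had a read in siGFP cells. They were named after their values had been seen.

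**Figure D4:**
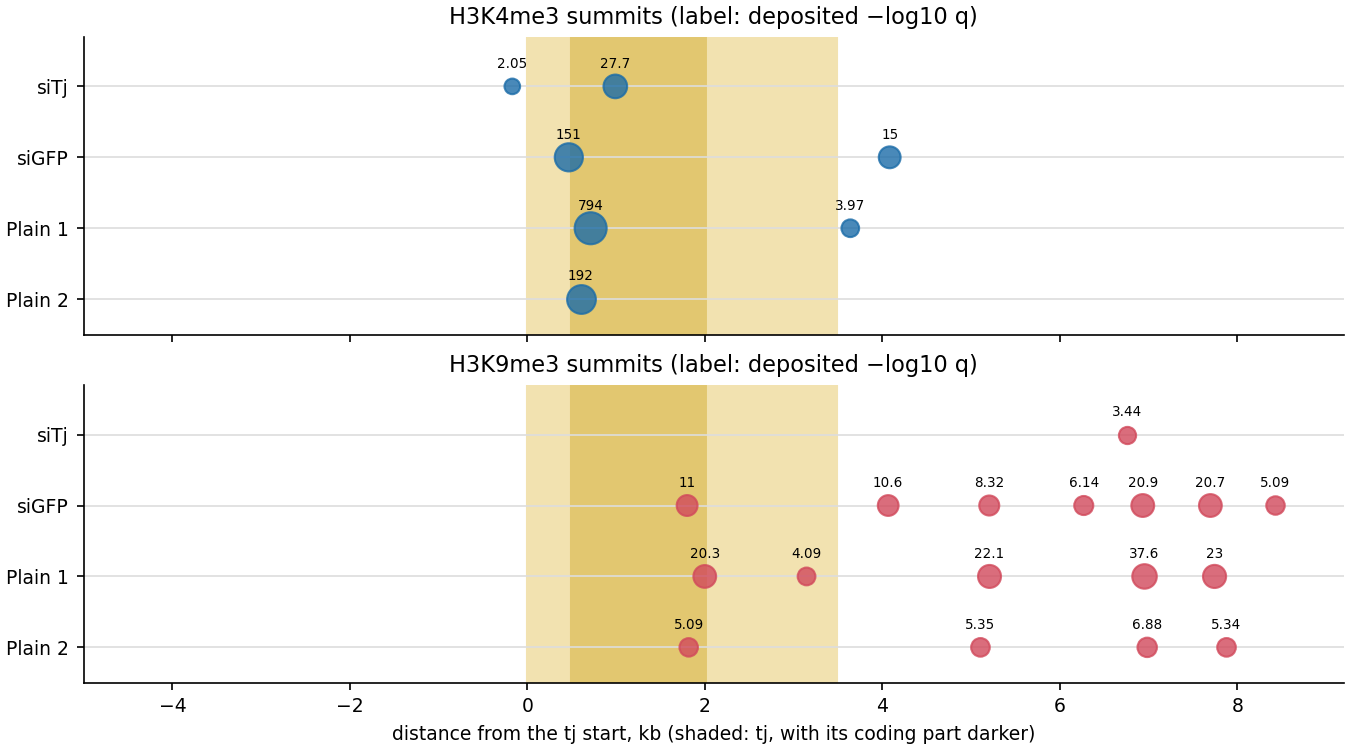
Summits of H3K4me3 (upper panel) and H3K9me3 (lower panel) by distance from the tj start in kb, per OSS library, with the gene shaded, its coding part darker, and each summit labelled with the deposited −log10 q. The H3K4me3 summit in the gene is present in all 4 libraries, and the H3K9me3 summits past the gene number 1 in siTj, 6 in siGFP and 3 in each Plain sample.

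No deposited TJ peak overlapped tj. Of the 1987 peaks, each 500 bp wide, 3 lay within 50 kb. The nearest, chr2L:19473581-19474080, lay 5823 bp past the end of the gene, in no annotated gene. A second, chr2L:19454142-19454641, lay 9626 bp upstream and spanned the start of CG10026, with its centre 135 bp past that start and Top2 652 bp away. The third, chr2L:19425020-19425519, lay 38748 bp upstream and overlapped Pax, CG13085 and CG16771. Such spacing was common, as 31.8% of genes had at least 3 peaks within 50 kb and 10.2% had at least 2 within 10 kb. A peak nearer than that of tj was found for 26.25% of genes.

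The genes around tj were compared after siTj to show whether the fall was shared by the neighbourhood. Of 26 other genes within 50 kb, 20 could be tested and 18 averaged 1 CPM or more in OSS cells. None passed in edgeR, without or with the block, set against 0.0467% and 3.54% of all genes. None reached an unadjusted p under 0.05 without the block, where 788 of 10711 genes did. With the block 4 of 20 did, a share like that of all genes, 2132 of 10711. Their median log2 fold change was 0.19, beside 0.08 over all genes, and −0.04 in the paired fit, beside 0.02.

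Top2, which encodes topoisomerase II and lies 10776 bp upstream, averaged 1484 ± 754 CPM in siTj and 2475 ± 348 CPM in siGFP cells. Its paired log2 fold change was −0.94 (SE 0.40, adjusted p = 0.223, edgeR). CG10026, the nearest neighbour upstream at 6543 bp, averaged 6.41 ± 4.86 CPM in siTj and 2.36 ± 1.00 CPM in siGFP cells, with a paired value of 1.32 (SE 0.59, adjusted p = 0.242, edgeR), and its bounds differ between libraries. Pax, which encodes the focal adhesion protein paxillin, averaged 1169 ± 464 CPM in siTj and 755 ± 242 CPM in siGFP cells, with a paired value of 0.58 (SE 0.21, adjusted p = 0.151, edgeR). CG10194 averaged 6.93 ± 2.35 CPM in siTj and 3.49 ± 2.60 CPM in siGFP cells, with a paired value of 1.25 (SE 0.50, adjusted p = 0.193, edgeR). CG13083, which overlaps its end on the other strand, rested on few reads, at 1.37 ± 1.95 CPM in siTj and 0.193 ± 0.312 CPM in siGFP cells. Paired log2 fold changes of RanGAP, Hs2st, CG10237, Rab9, CG9987, CG13085, CG16771, CG10195, CG10189, swm, Top3alpha, CG10188 and CG10186 lay between −0.80 and 0.84 with adjusted p (edgeR) of 0.277 or more. CG13085 and CG16771 overlap on 1 strand, so their reads cannot be told apart, and the bounds of CG10237 also differ between libraries. In ovaries none of 23 tested neighbours passed (edgeR), in a fit where no gene did. Of these neighbours 3 had an unadjusted p under 0.05, beside 1249 of all 11257 genes, a similar share. Their median log2 fold change was −0.07, as was that of all genes.

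**Figure D5:**
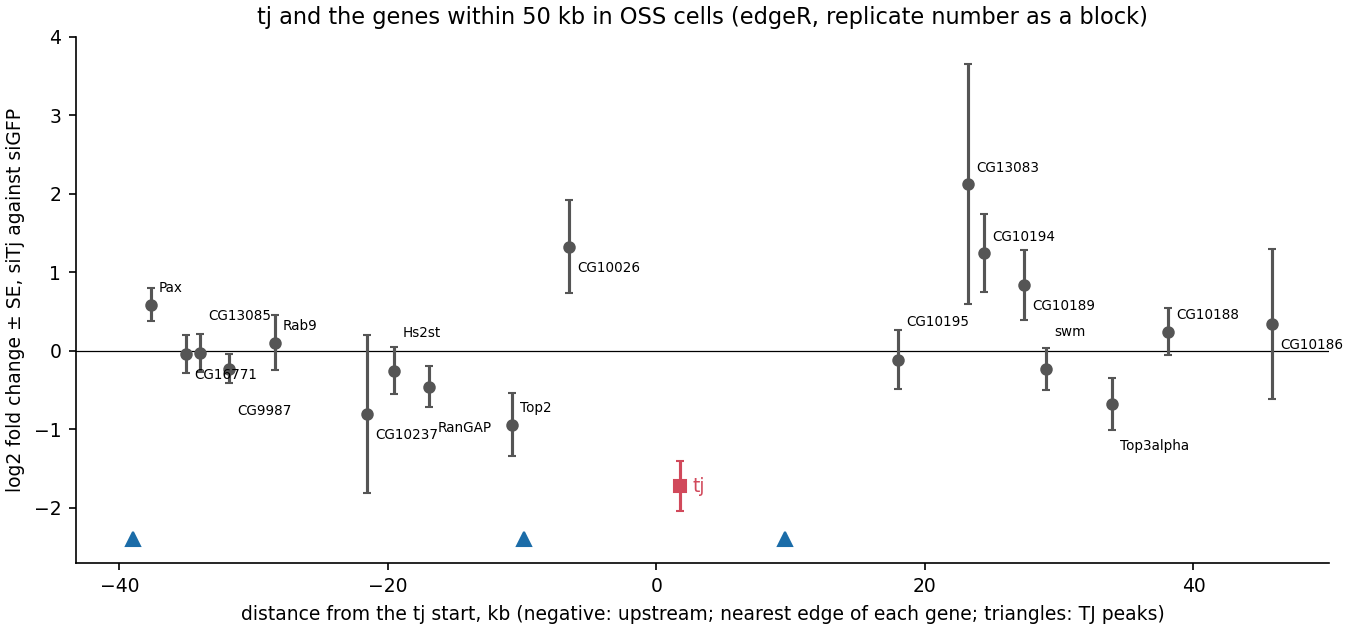
Log2 fold change in siTj against siGFP cells (paired edgeR fit, bars are SE) of tj (red square) and of the 18 genes within 50 kb that average 1 CPM or more, by distance of their nearest edge from the tj start in kb, with blue triangles at the TJ peaks. tj, at −1.72, is the lowest value plotted, and no neighbour passed the threshold.

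Genes proposed as TJ targets differed in both directions after siTj. None of 6 passed without the block, where 0.0467% of all genes passed. In the paired fit, where 3.54% of all genes passed, 1 rose and 2 fell. Nrt, an adhesion molecule of the cell surface, held 6130, 2756 and 4703 CPM in siTj replicates 1, 2 and 3, against 1451, 1438 and 877 in siGFP. It rose by 1.84 on the log2 scale (SE 0.28, adjusted p = 0.00953, paired edgeR), and its groups did not overlap. piwi and flam, the transcript of the flamenco piRNA cluster, fell by 2.00 (SE 0.38, adjusted p = 0.0218) and 2.03 (SE 0.36, adjusted p = 0.0162) in the same fit. Fas3, the gene of Fasciclin 3, averaged 167 ± 40.4 CPM in siTj and 140.3 ± 36.4 CPM in siGFP cells. shg, the E-cadherin gene, averaged 332 ± 63.4 CPM in siTj and 479 ± 171 CPM in siGFP cells. CadN, the N-cadherin gene, averaged 1784 ± 662 CPM in siTj and 1312 ± 1020 CPM in siGFP cells. None of these 3 passed.

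Of the small Maf and CNC factors with their inhibitor Keap1, none of 3 passed without the block, and in the paired fit, where 3.54% of all genes passed, Keap1 did. Keap1, which holds back the CncC protein and is itself no Maf or CNC factor, held 139, 238 and 60.2 CPM in siTj replicates 1, 2 and 3, against 49.6, 61.7 and 25.6 in siGFP, higher at each number but overlapping. It rose by 1.53 on the log2 scale (SE 0.35, adjusted p = 0.0368, paired edgeR), against an adjusted p of 0.653 without the block. maf-S, the small Maf partner of CncC, averaged 41.8 ± 20.7 CPM in siTj and 65.3 ± 52.0 in siGFP cells, and cnc 566 ± 131 CPM in siTj and 571 ± 233 CPM in siGFP cells, and neither passed.

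Among 21 further transcription factors of gonadal somatic cells that could be tested, none passed without the block and 1 did in the paired fit, a share near the 3.54% of all genes. ct, which encodes the homeodomain protein Cut of early follicle cells, held 462, 131 and 249 CPM in siTj replicates 1, 2 and 3, against 34.6, 36.7 and 8.60 in siGFP. It rose by 3.76 on the log2 scale (SE 0.69, adjusted p = 0.0197, paired edgeR), and the groups did not overlap. The list's median log2 fold change was 0.39 in the paired fit, beside 0.02 over all genes. Without the block it was 0.38, beside 0.08, with 14 positive and 7 negative values. Some positive values rested on siTj 2. In siTj replicates 1, 2 and 3, hth held 0.855, 60.9 and 0.418 CPM, Abd-B 0.570, 25.9 and 0.139, and H15 0.342, 8.68 and 0.

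Summed levels of the muscle list and of the hemocyte and fat body list were higher in siTj than in siGFP libraries. Without the block, all 8 muscle genes and all 5 hemocyte and fat body genes tested had positive log2 fold changes. Their medians were 2.37 and 2.34, beside 0.08 over all genes, and 1.76 and 1.90 in the paired fit, beside 0.02. Members differed in size of change and between replicates. The summed level of 8 muscle genes was 179 to 271 CPM in siTj and 75.3 to 116 CPM in siGFP cells. That of 7 hemocyte and fat body genes was 204 to 497 CPM in siTj and 25.1 to 90.1 CPM in siGFP cells. siPiwi 2 also had high sums, of 193 CPM for muscle and 204 CPM for hemocyte and fat body genes. On the scale of the OSS libraries, the collagen IV genes Cg25C and vkg held 320 and 151 CPM in siTj 1. Pxn held 2.05, 16.9 and 0.487 CPM in siTj replicates 1, 2 and 3, against 4.95, 2.71 and 2.71 in siGFP. NimC1 held 0, 2.70 and 0.139 CPM in siTj, whereas Hml was higher than siGFP at each number. The muscle gene Act57B held 61.8, 44.3 and 192 CPM in siTj, against 6.55, 23.5 and 11.9 in siGFP. Mhc held 48.6, 62.9 and 3.41 CPM in siTj, against 2.23, 12.9 and 1.13 in siGFP. None of the markers passed without the block. In the paired fit, where 3.54% of all genes passed, 1 of 8 muscle genes tested rose, Act57B, with 99.3 ± 80.6 CPM in siTj and 14.0 ± 8.64 CPM in siGFP cells. Both collagen IV genes rose, Cg25C to 213 ± 93.2 CPM in siTj against 22.6 ± 17.7 CPM in siGFP cells and vkg to 98.1 ± 52.3 against 17.9 ± 12.8 CPM, as 2 of 5 hemocyte and fat body genes tested. Of 9 follicle and somatic ovary genes ct rose and bond, an enzyme of fatty acid elongation, fell to 3.83 ± 2.90 CPM in siTj against 42.7 ± 24.9 CPM in siGFP cells. Of 9 germline genes tested rhi fell to 9.86 ± 5.43 CPM in siTj against 31.6 ± 22.6 CPM in siGFP cells. The defining fat body genes Lsp2 and Fbp1 held 1.61 and 3.14 CPM in siTj 2 and 1.46 and 3.95 CPM in siPiwi 2, and lay under 1 CPM in every other OSS library. The part of these markers in the tj result was not tested.

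Some genes followed tj closely from library to library. Over the 12 OSS libraries and 6536 genes with a mean of at least 10 CPM, the highest Pearson r with tj on log2(CPM + 1) belonged to CG5986 (0.972), CG3335 (0.968), Lpt (0.957), CG7685 (0.955) and CG7009 (0.951). The lowest belonged to Trxr-1, the thioredoxin reductase gene (−0.968), CG14907 (−0.957) and mkg-p (−0.956). Spearman's rho was 0.853 to 0.958 for the 5 high genes and −0.972 to −0.895 for the 3 low ones. Without the 2 libraries farthest from the median of tj, r was 0.916 to 0.951 and −0.937 to −0.900. Deviations from the group means, which leave out the knockdown, correlated at 0.924 to 0.971 for the 5 high genes. Of these genes CG5986 passed after siTj in the paired fit, with a log2 fold change of −1.17 (adjusted p = 0.0347, edgeR), where 3.54% of all genes passed. As the genes were picked by r over these same libraries, siTj among them, this call is not a separate result.

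Over the 12 ovary libraries and 7544 genes the highest r belonged to CG8939 (0.981), CG9925 (0.981), Rm62 (0.980), CG9004 (0.976) and Nxf3 (0.975), with rho of 0.923 to 0.986. Without the 2 libraries farthest from the median r was 0.958 to 0.983. Rm62, an RNA helicase gene, has bounds that differ between libraries. piwi had r = 0.936 with tj in ovaries, above 98.9% of genes, and r = 0.509 in OSS cells, above 67.8%, where the siPiwi libraries are included. flam had r = 0.453 in ovaries, above 59.3% of genes, and 0.444 in OSS cells, above 63.4%. armi, a piRNA pathway helicase gene, had 0.936 in ovaries and 0.714 in OSS cells, and maf-S −0.242 in ovaries and 0.191 in OSS cells. These 4 genes were examined after the data had been seen. Points in these correlations share their library, its depth and, in ovaries, its tissue makeup, so r is given as a description.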

How the data were processed

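Long RNA from 12 OSS and 12 ovary libraries was used, with 8 Cut&Run summit lists and 1 list of TJ peaks from OSS cells. The submitters' processing notes name Bowtie2, FastQC, MACS2 and DESeq2 without versions or roles. Per the file headers, each deposited table of long RNA gives counts of unique reads, as whole numbers, in sense and antisense for every gene and its parts. They also held RPM, reads scaled by the authors to their library totals. The deposited Cut&Run lists hold a score per summit, taken as −log10 q because its values do not go below those of a q of 0.05 and the peak names follow a call against IgG. A Release 6 symbol was found for 12346 genes, of which 93.5% share both bounds with the reference.

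Counts were tested with the quasi-likelihood test of edgeR 4.0.16 in R 4.3.3, after filterByExpr and TMM scaling, over all genes, with Benjamini-Hochberg adjustment at 0.05. All 12 OSS libraries shared 1 fit without a block, and ovaries had the line as a block. DESeq2 1.42.0 was an alternative. Log2 ratios of parts (pseudocount 0.5, at least 20 reads on average) were tested with limma 3.58.1. Replicate numbers recur across the OSS groups, with no label for what they stand for. Deviations from group means correlated at 0.235 to 0.899 in 18 of 18 same-number pairs, all above 0.1, so the numbers were taken to pair the samples and a fit with the replicate block was set beside the fit without it. The biological coefficient of variation was 0.457 with the block and 0.758 without it. The procedures were tested on simulated counts.

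The gene and the lists were chosen with earlier results of these data known. Named genes are neighbours within 50 kb at 1 CPM or more, up to 4 called genes per list, all proposed TJ targets and Maf factors, and the genes of highest and lowest r. Sequences of tj and of the peaks were not used here. Small RNA was not analysed here.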

Additional observations from a re-analysis of the deposited data

Results flagged for a closer look

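In FITS mutant ovaries tj stood at 309 CPM, far above the other 5 mutant libraries, which held 44.95 to 118 CPM. The same library was the high one for the 5′ UTR of tj, at 62.6 CPM, and for the 3′ UTR, at 156 CPM, while its coding part, at 97.3 CPM, was not far enough from the others. FITS wild-type ovaries were also the highest of their group, at 387 CPM, without standing apart. The antisense share of tj was 8.77% in FPSE1 mutant ovaries, against 0.104% to 3.29% in the other mutant libraries. Over 14 groups of 6 libraries examined, chance flags about 1 in 20, and the first 3 flags come from 1 library. Muscle markers summed to 4947 CPM in FITS mutants and 5136 CPM in FITS wild type.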

How the results depend on the processing

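Of the alternatives recomputed, 387 values kept their direction and side of the threshold, 28 newly passed, 1 no longer passed, 18 changed sign and 13 summit counts moved. With the replicate block added, tj fell in siTj against siGFP (log2 fold change −1.72) and against siCi (−1.47), as did the coding part (−1.98), both UTRs (−1.45) and the 3′ UTR (−1.56) against siGFP. The block changed no other call of tj or its parts. DESeq2 with the replicate block gave −1.66 and −1.44 for tj, −0.90 (adjusted p = 0.0461) against siPiwi, and −1.90, −1.41 and −1.56 for the coding part, both UTRs and the 3′ UTR. The authors' library totals with the block, chosen after seeing the data, gave −2.45 for tj, −2.79 for the coding part and −2.11 for both UTRs, while the paired calls of tj against siCi (−1.69, adjusted p = 0.0888) and of the 3′ UTR (−2.22, adjusted p = 0.0557) were lost. Without siPiwi 2 and siTj 2 the paired values were −1.53 and −1.28 for tj against siGFP and siCi, and −1.46 for the coding part.

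The number of genes called in siTj against siGFP was 5 in edgeR, 206 in DESeq2, 379 in edgeR with the replicate block and 1253 in DESeq2 with it. In siTj against siPiwi it was 0, 78, 73 and 449 in the same order, and in siTj against siCi 1, 105, 156 and 780. DESeq2 called 335 genes in ovaries, where edgeR called 0.

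Values near 0 changed sign. In siCi against siGFP the coding part, at 0.19, was −0.072 with the block, −0.052 in DESeq2 with the block and −0.65 with the authors' totals and the block. The 5′ UTR there, at −0.10, was 0.069 in DESeq2 and 0.11 with the block added. The cause was not tested.

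With each library left out in turn, tj ranged from −1.98 to −1.40 in siTj against siGFP (with the block −2.26 to −1.60, and −2.02 without siGFP 1, −2.01 without siGFP 3 and −1.64 without siTj 2), from −1.84 to −0.95 against siCi (with the block −1.85 to −1.37, and −1.81 without siCi 3) and from −1.41 to −0.40 against siPiwi (−1.27 to −0.70). Against siGFP it ranged from −1.43 to −0.25 in siPiwi and from −0.80 to 0.11 in siCi. The siCi value was 0.01 without siCi 2 or siCi 3. The coding part ranged from −2.31 to −1.45 in siTj (with the block −2.69 to −1.54, and −2.36 without siGFP 1 and −2.51 without siGFP 3). In ovaries tj ranged from −1.15 to −0.74. The log2 ratio of 3′ UTR to coding reads ranged from −0.025 to 0.90 in siTj, −0.35 to 0.47 in siPiwi, −1.07 to −0.18 in siCi, −0.34 to 0.047 in mutant ovaries and −2.12 to −1.30 in siGFP cells against wild-type ovaries. That of 5′ UTR to coding reads ranged from 0.85 to 2.27 in siTj, −0.053 to 1.37 in siPiwi, −0.74 to 0.96 in siCi, −0.12 to 0.20 in mutant ovaries and −4.16 to −2.74 between tissues, and in siCi was 0.69 without siGFP 3. In mutant ovaries it was −0.02 without FPSE2A.

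Within 20 kb the H3K4me3 summits numbered 5 in siTj, 5 in siGFP, 5 in Plain 1 and 6 in Plain 2, and in the upper part of each list by score 1 in siTj, siGFP and Plain 1. Within 1 kb the H3K9me3 summits numbered 0 in siTj, 2 in siGFP, 2 in Plain 1 and 1 in Plain 2, and in the upper part of the list 0 in siTj and 1 in Plain 2. Depth was low at the 5′ UTR of tj, with 89 reads in 1 mutant ovary library.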
